A study of Homo sapiens with 2 samples.

Results

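ATG16L1, GABARAPL1 and TFEB are 3 genes of macroautophagy, the route by which a double membrane encloses part of the cytoplasm and delivers it to the lysosome. They were taken by gene symbol from the platform annotation, which names 14884 genes, and each had 1 probe set on the array. They were chosen by their log2 differences between the arrays, which were among the largest in a list of autophagy and lysosome genes, so these differences are given as descriptions and were not tested. Expression was measured in SNK6, a human lymphoma line of natural killer/T cell type that carries Epstein-Barr virus, kept in medium with 10% serum and 500 U/ml interleukin-2. One culture received romidepsin plus sildenafil and the other romidepsin alone, both for 72 h, and each was read on 1 array. Romidepsin inhibits class I histone deacetylases and sildenafil inhibits phosphodiesterase 5, and the comparison asks what the second drug adds to the first. The sources used here give no doses, a single line stands for the disease, and no untreated or sildenafil-only culture was analysed here.

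The deposited values are log2 signals. They ran from 0.79 to 12.97 on the romidepsin plus sildenafil array and from 0.93 to 13.05 on the romidepsin array, with medians of 3.92 on the combination array and 3.89 on the romidepsin array. With 1 array per treatment no value carries a replicate error, and neither a p-value nor a standard error can be given. Treatment and any batch cannot be told apart. Of the listed NK and T cell markers, 13 of 23 had a named probe set and 12 reached the filter level described below. Among them were the cytotoxic granule genes PRF1 (8.81 with sildenafil and 8.83 without) and NKG7 (8.23 with and 8.50 without), and NCAM1, which encodes CD56 (6.54 with and 6.63 without). Other kept markers were dim, such as CD5 (4.37 with and 4.13 without). The granule gene GNLY (3.92 with and 3.82 without) was kept only through the combination array. EOMES stayed below the level on both arrays (2.90 with sildenafil and 3.21 without). Of the 12 kept markers 7 were higher with sildenafil and 5 lower, a split that moved between 6 and 6 and 9 and 3 with scaling, and their median difference was 0.03. The largest differences were the T-box factor gene TBX21 at 0.47 (5.09 with sildenafil and 4.62 without) and the receptor gene NCR2 at 0.38 (5.16 with and 4.79 without). Some markers of other cell types passed the filter too. All 7 monocyte and macrophage markers had a named probe set and 4 were kept, with CD68 at 6.61 with sildenafil and 6.72 without, FCN1 at 5.22 with and 5.20 without, CSF1R at 4.28 with and 4.01 without, and VSIG4 at 3.88 with and 4.30 without. LYZ (2.24 with sildenafil and 2.17 without), CD163 (3.07 with and 2.89 without) and CD14 (3.79 with and 3.62 without) lay below the level. Of the B cell markers 3 of 7 had a named probe set and 2 were kept. These were PAX5 (5.05 with sildenafil and 5.23 without) and BLK (5.14 with and 5.19 without). Of the epithelial and fibroblast markers 4 of 8 had a named probe set and 3 were kept. Among these 3 was KRT18 at 7.38 with sildenafil and 7.04 without, read from the brighter of its 2 probe sets. The part of these markers in the differences below was not tested.

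Autophagosomes form in steps that are carried out by different protein groups. The ULK kinase complex and a class III phosphatidylinositol 3-kinase complex start the membrane, ATG9 vesicles and ATG2 proteins feed it with lipid, and a pair of ubiquitin-like conjugation reactions then attach ATG8 proteins to it. ATG16L1 binds the ATG12-ATG5 conjugate and places it on the growing membrane, where the conjugate promotes lipidation of the ATG8 proteins. GABARAPL1 is one of those ATG8 proteins, in the GABARAP branch of the family, beside the LC3 branch. TFEB is a basic helix-loop-helix transcription factor that mTORC1 holds in the cytoplasm, and that enters the nucleus on starvation or lysosomal stress and activates lysosomal and autophagy genes through CLEAR elements.

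ATG16L1 (Entrez gene 55054) had a log2 signal of 5.64 with romidepsin plus sildenafil and 6.12 with romidepsin alone. The difference, combination minus romidepsin, was -0.48, so the signal with sildenafil was 71.9% of that without, or 1.39-fold lower. Both values lay well above 3.91, the median over both columns, which served as the level a gene had to reach on its brighter array to be kept. In bulk RNA, fewer cells carrying a transcript and less of it per cell cannot be told apart. The difference was set against those of the 500 kept genes with the nearest mean signal, because dim probe sets scatter more between arrays than bright ones. Those genes had a median difference of -0.02 and an SD of 0.21, and their central 95% ran from -0.45 to 0.38, so ATG16L1 lay just outside that range. Of the 500 genes, 14 (2.8%) were at least as far apart, and 11 of these were lower with sildenafil. The bases before the RefSeq start of ATG16L1 are shown because the gene has the largest difference of the 3 and its promoter is compared below with those of the other members. They cover 250 bases of the plus strand at chr2:233251423-233251672 (GRCh38.p14, from RefSeq). Here and below, capitals mark matches to motifs named later.
ATG16L1: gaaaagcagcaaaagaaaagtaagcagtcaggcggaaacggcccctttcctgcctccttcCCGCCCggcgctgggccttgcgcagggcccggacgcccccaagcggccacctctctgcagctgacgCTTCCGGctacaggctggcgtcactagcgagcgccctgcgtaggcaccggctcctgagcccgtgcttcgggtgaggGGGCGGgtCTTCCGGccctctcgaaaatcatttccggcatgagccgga

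GABARAPL1 (Entrez gene 23710) had a signal of 5.22 with romidepsin plus sildenafil and 5.60 with romidepsin alone. The difference was -0.38, or 1.30-fold lower, and the signal with sildenafil was 76.7% of that without. Both arrays were again above the filter level. This gene stood less far from its surroundings than ATG16L1 did, since 47 of 500 genes of like signal (9.4%) were at least as far apart, 23 of them lower. The SD of those 500 differences was 0.23 and their central 95% ran from -0.45 to 0.45, which takes in GABARAPL1. The window before its RefSeq start is shown because it holds a match to a motif that was chosen after the sequences had been read. It lies on the plus strand at chr12:10212627-10212876 (GRCh38.p14, from RefSeq).
GABARAPL1: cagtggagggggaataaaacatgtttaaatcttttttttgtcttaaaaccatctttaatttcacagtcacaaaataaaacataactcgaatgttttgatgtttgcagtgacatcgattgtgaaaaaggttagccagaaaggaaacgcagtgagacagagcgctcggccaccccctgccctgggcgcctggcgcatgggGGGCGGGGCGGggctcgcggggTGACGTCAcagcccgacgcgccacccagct

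TFEB (Entrez gene 7942) differed the other way, with a signal of 4.36 with romidepsin plus sildenafil and 3.90 with romidepsin alone. The difference was 0.46, or 1.38-fold higher. The romidepsin value lay just under the filter level of 3.91, so TFEB was kept through the array on which it was higher. The table holds no detection calls, so whether the transcript was above background on the romidepsin array is unknown. At this low signal the arrays differed more from gene to gene, with an SD of 0.28 over the 500 genes of like signal and a central 95% from -0.47 to 0.62. TFEB lay inside that range, and 48 of the 500 genes (9.6%) were at least as far apart, 34 of them higher. RefSeq lists 3 start windows for TFEB. The one farthest upstream is shown as the counterpart of the windows above, on the minus strand at chr6:41735609-41735858 (GRCh38.p14, from RefSeq).
TFEB: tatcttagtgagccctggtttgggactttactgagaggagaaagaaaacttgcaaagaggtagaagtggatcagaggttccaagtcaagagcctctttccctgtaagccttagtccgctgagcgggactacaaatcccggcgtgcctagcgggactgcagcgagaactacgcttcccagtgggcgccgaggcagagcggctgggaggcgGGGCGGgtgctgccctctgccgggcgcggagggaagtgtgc

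**Figure D1:**
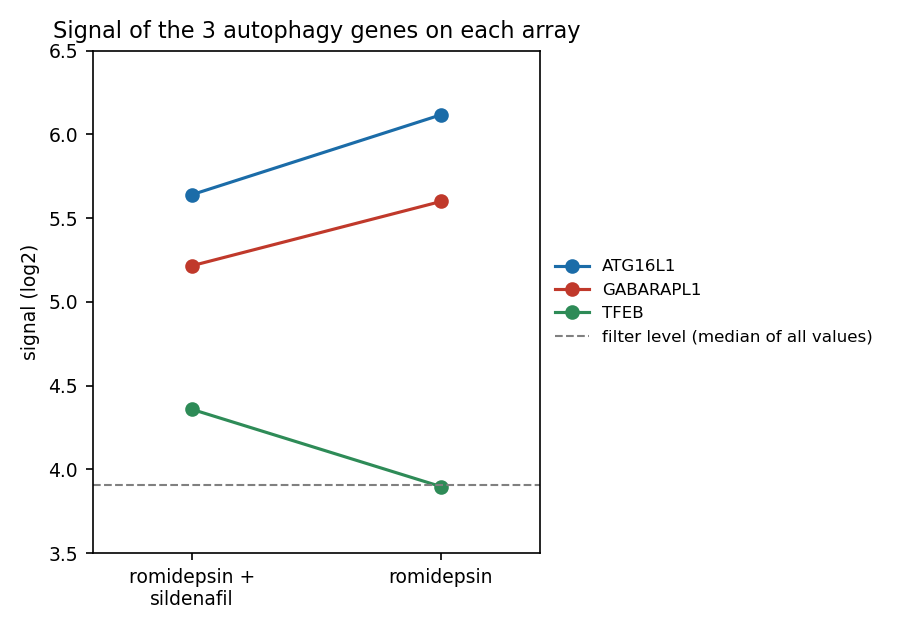
Log2 signal of ATG16L1, GABARAPL1 and TFEB on the romidepsin plus sildenafil array (left) and the romidepsin array (right), 1 point per array, with the filter level of 3.91 as a dashed line. ATG16L1 and GABARAPL1 are lower with sildenafil (5.64 against 6.12, and 5.22 against 5.60), and TFEB is higher (4.36 against 3.90) and lies at the filter level with romidepsin alone. Heights of different genes cannot be compared, because probe sets differ in brightness.

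None of the 3 genes reached a 1.5-fold difference, which 201 of 10081 kept genes did (1.99%). Of those, 103 were higher with sildenafil (1.02%) and 98 lower (0.972%), or 78 and 116 when each array was centred on its own median. A smaller threshold of 0.32 on the log2 scale was passed by all 3 members and by 1283 of the 10081 genes (12.7%), of which 674 were higher (6.69%) and 609 lower (6.04%). Because these 3 genes were chosen for their differences, nothing can be read from that count. Their directions were the same under every scaling tried, with ATG16L1 between -0.50 and -0.43, GABARAPL1 between -0.41 and -0.35, and TFEB between 0.42 and 0.46. Against protein-coding genes of like signal alone, a setting chosen after seeing the data, 1.2% were as far apart as ATG16L1. The same setting gave 7.4% for GABARAPL1 and 8.6% for TFEB. For ATG16L1 this was the lowest share of all settings, against 2.8% over all kept genes and 4.6% under quantile normalization.

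**Figure D2:**
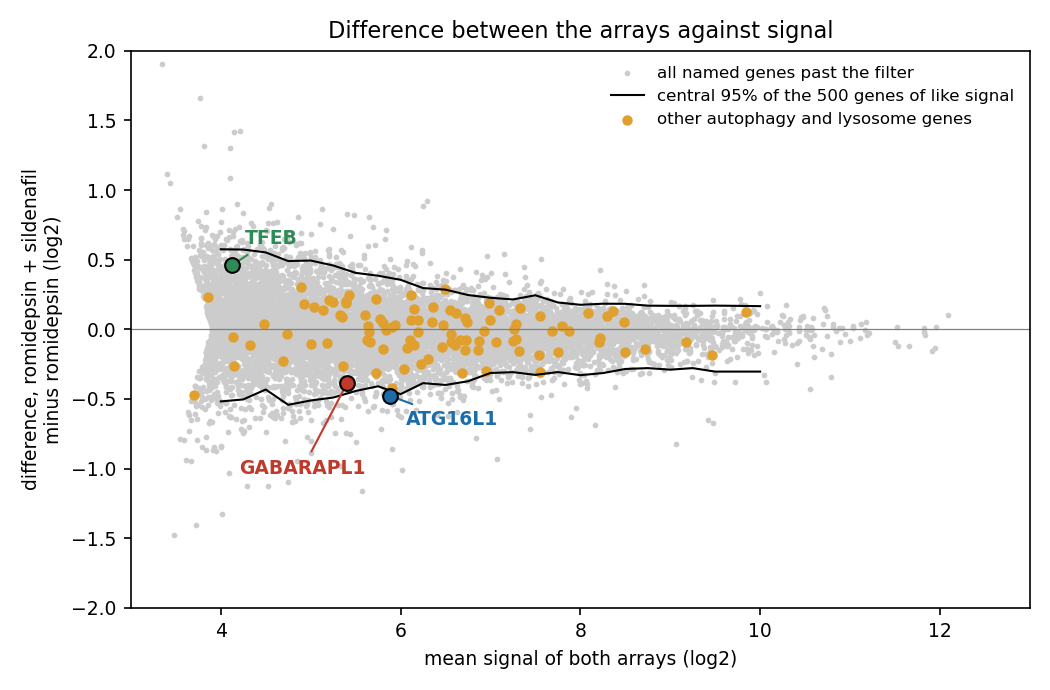
Difference in log2 signal, romidepsin plus sildenafil minus romidepsin, against the mean log2 signal of both arrays for the 10081 kept genes (grey), with the 95 other autophagy and lysosome genes (orange) and the 3 members labelled. The black lines hold the central 95% of the 500 genes nearest in signal. ATG16L1 at -0.48 lies at the lower line, whereas GABARAPL1 at -0.38 and TFEB at 0.46 lie inside the lines.

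ATG16L1 acts with ATG5 and ATG12, and of these ATG5 was also lower with sildenafil while ATG12 was not. ATG5 had a signal of 6.80 with romidepsin plus sildenafil and 7.10 with romidepsin alone, a difference of -0.30, and 4.6% of genes of like signal were as far apart. Here and below, up to 4 genes per list were named because their differences were the largest. A small share therefore does not show that such a gene is unusual. ATG12 had 5.65 with sildenafil and 5.63 without (difference 0.03). ATG16L2, the related gene whose product can also bind ATG5, had 5.91 with sildenafil and 5.89 without (0.01). Both small differences turned slightly negative when each array was centred on its own median. Of the enzymes of the 2 reactions, the E1-like ATG7 (0.07) and the E2-like ATG3 (-0.06) and ATG10 (0.09) lay near 0. In all, 7 of the 11 listed conjugation genes were named and kept, 4 higher and 3 lower, with a median difference of 0.01, against -0.01 over all kept genes. With each array centred on its own median the split was 2 higher and 5 lower. The mean of the 7 genes was -0.09, so mean and median differ in sign. Without ATG16L1 the median was 0.02 and the mean -0.03.

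Further along the same route, genes that recruit or work beside ATG16L1 were mixed. RB1CC1, which encodes the FIP200 subunit of the ULK complex and binds ATG16L1, differed by -0.08 (6.70 with sildenafil and 6.77 without). The bacterial sensors NOD1 (0.16) and NOD2 (0.23), which bring ATG16L1 to the site of bacterial entry, were higher. NOD2 was dim, with 3.97 on the combination array and 3.74 on the romidepsin array. It was kept only through the array on which it was higher, and 53.8% of genes of like signal were as far apart. Genes with a mean below the filter level are kept only if their arrays differ enough. This raises that share, so it does not show how usual the difference of NOD2 is. RIPK2, the kinase that signals below both sensors, was lower at 7.40 with sildenafil against 7.70 without (-0.31), and 5.2% of genes of like signal were as far apart. TLR2, a receptor for bacterial lipoproteins, differed by -0.47, but its values of 3.47 with sildenafil and 3.94 without straddled the filter level. Of genes of like signal 21.6% were as far apart, a share that the filter raises in the same way as that of NOD2. TMEM59, a membrane protein that binds ATG16L1, was at -0.01. The 5 kept genes of this list had a median of -0.01.

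The signals of all 6 kept ATG8 genes, GABARAPL1 among them, were lower on the combination array. Their median difference was -0.21. GABARAP, the name-giving member of the branch, had 8.42 with romidepsin plus sildenafil and 8.58 with romidepsin alone (-0.16). GABARAPL2 had 7.25 with sildenafil and 7.32 without (-0.07). The LC3 gene MAP1LC3B2 differed by -0.27 (5.23 with sildenafil and 5.50 without). MAP1LC3A differed by -0.26 (4.02 with and 4.28 without) and MAP1LC3B by -0.06 (4.11 with and 4.16 without). Both MAP1LC3A and MAP1LC3B were dim, close to the filter level of 3.91. Each difference was modest against its surroundings, since between 9.4% and 81.6% of genes of like signal were at least as far apart. Across all kept genes 52.4% were lower on the combination array. Without GABARAPL1, which was chosen for being low, 5 of 5 were lower with a median of -0.16. The seventh listed gene, MAP1LC3C, was below the filter level on both arrays and higher with sildenafil (3.63, against 3.45 without, difference 0.17). All 6 stayed lower under each scaling tried, where GABARAPL2 came nearest to 0 at -0.02. MAP1LC3B and MAP1LC3B2 are nearly identical in sequence, so their probe sets may read the same transcripts.

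**Figure D3:**
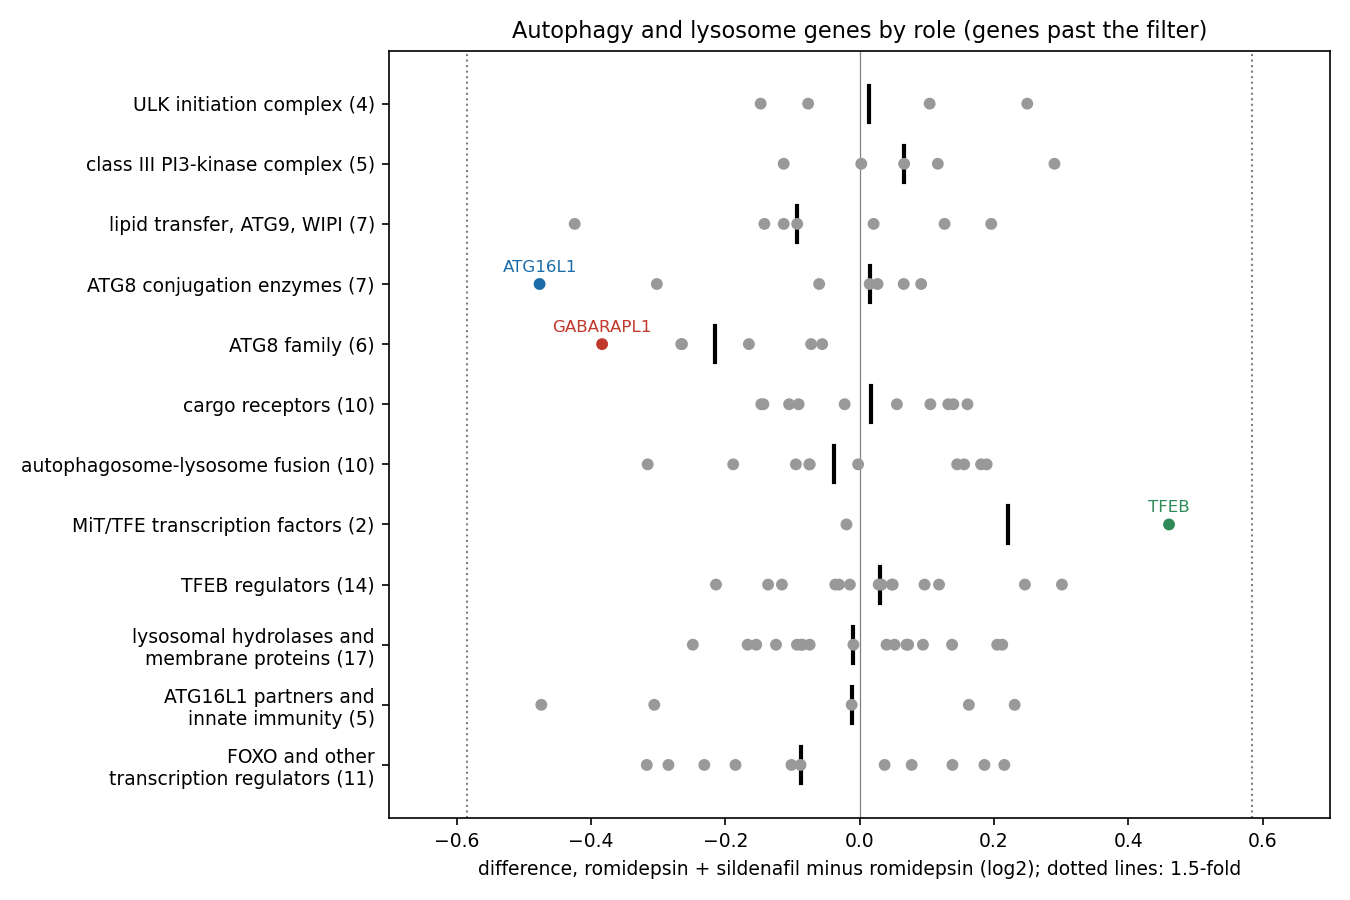
Difference in log2 signal, romidepsin plus sildenafil minus romidepsin, of every kept autophagy and lysosome gene, 1 point per gene, in rows by role with the number of genes in brackets. A bar marks the median of each row and dotted lines mark 1.5-fold. No point lies beyond the dotted lines, against 1.99% of all kept genes. All 6 points of the ATG8 family lie below 0 with a median of -0.21, where 52.4% of all kept genes are lower.

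TFEB belongs to the MiT/TFE family of 4 factors, and TFE3 was the other one that reached the filter level. TFE3 had 5.64 with romidepsin plus sildenafil and 5.66 with romidepsin alone, a difference of -0.02 that became 0.02 under quantile normalization. MITF (3.05 with sildenafil and 2.85 without) and TFEC (3.30 with and 3.58 without) were below the filter level on both arrays. The genes that control where TFEB resides lay close to 0, with a median of 0.03 over 14 kept genes, 8 higher and 6 lower. The other 9 of the 23 listed genes had no named probe set. MTOR, the kinase that phosphorylates TFEB, was at 0.12 (8.14 with sildenafil and 8.03 without). FLCN, which encodes folliculin and acts on the Rag GTPases of the RRAGC and RRAGD genes, was at -0.04, with RRAGC at -0.21 and RRAGD at -0.12. The largest differences were RRAGB, another Rag GTPase gene, at 0.30, and TSC2, a brake on mTORC1, at 0.25. Of genes of like signal, 22.8% were as far apart as RRAGB and 17% as TSC2. RHEB, the GTPase that TSC2 acts on, was at -0.14. Under quantile normalization and lowess centring 10 of the 14 were higher and 4 lower.

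Genes of lysosomal hydrolases and membrane proteins, the class that TFEB activates through CLEAR elements, lay on both sides of 0. Of 36 listed genes 19 had a named probe set and 17 were kept. Of the 17 kept genes, 8 were higher and 9 lower with sildenafil, with a median difference of -0.01. Lysosomal membrane proteins LAMP1 and LAMP2 differed by 0.05 and -0.17. The calcium channel gene MCOLN1, whose product helps to switch TFEB on, had 6.39 with romidepsin plus sildenafil and 6.52 with romidepsin alone (-0.12). CTSD, which encodes the protease cathepsin D, was at -0.01 (7.68 with sildenafil and 7.69 without). The largest differences were HEXA, a subunit of beta-hexosaminidase, at -0.25, the sulfatase ARSA at 0.21 and the protease gene CTSB at 0.20. Of genes of like signal, 15.6% were as far apart as HEXA, 32.2% as ARSA and 35% as CTSB. No gene of this list differed by 0.32 or more, against 12.7% of all kept genes. The list was brighter, with a median mean signal of 6.74 against 5.77 over all kept genes, and differences are narrower at higher signal. The part of signal in this was not tested. The subunits of the lysosomal proton pump had no named probe set and were not analysed here.

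FOXO1 and FOXO3 are forkhead factors, of which FOXO3 activates ATG8 genes in mouse muscle, and both were lower with sildenafil. FOXO3 had 5.57 with romidepsin plus sildenafil and 5.89 with romidepsin alone (-0.32), but its second probe set, at 5.01 with sildenafil and 5.07 without, differed by -0.06. FOXO1 had 5.90 with sildenafil and 6.19 without (-0.28), whereas FOXO4 was at 0.22. HDAC6, a cytoplasmic deacetylase that helps autophagosomes fuse with lysosomes, was at -0.23. Of genes of like signal, 34% were as far apart as HDAC6, 26% as FOXO4, 13.6% as FOXO1 and 9.2% as FOXO3. ATF4, a stress factor that also activates autophagy genes, was at -0.18, and 9.4% of genes of like signal were as far apart. The 11 kept regulators had a median of -0.09, with 5 higher and 6 lower.

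In the earlier steps, ATG9A had a difference of the members' size. It encodes the membrane-spanning lipid scramblase of the ATG9 vesicles and had 5.69 with romidepsin plus sildenafil and 6.12 with romidepsin alone. Its difference of -0.42 was larger than that of GABARAPL1, and 5.4% of genes of like signal were as far apart. The other genes of the lipid supply group were nearer to 0, with WDR45, which encodes the phosphoinositide-binding protein WIPI4, at 0.20, the lipid transfer gene ATG2A at -0.14 and the scramblase gene VMP1 at 0.13. Of genes of like signal, 36.8% were as far apart as WDR45, 44.8% as ATG2A and 22.4% as VMP1. The 7 kept genes of the group had a median of -0.09. In the ULK complex, ATG101 was at 0.25 (0.14 on its second probe set), ATG13 at -0.15 and the kinase gene ULK1 at 0.10. Of genes of like signal, 25% were as far apart as ATG101, 33% as ATG13 and 62.8% as ULK1. Of the lipid kinase complex, the inhibitory partner RUBCN (Rubicon) was highest at 0.29, with 6.64 on the combination array and 6.35 on the romidepsin array, and 8.8% of genes of like signal as far apart. NRBF2 was at 0.12, AMBRA1 at -0.11 and ATG14 at 0.07, with a median of 0.07 over 5 genes. The other 3 of the 8 listed genes, PIK3C3, PIK3R4 and BECN1, had no named probe set, so the median leaves them out.

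Cargo receptors and fusion genes lay on both sides of 0. SQSTM1, which encodes the ubiquitin-binding receptor p62, had 6.18 with romidepsin plus sildenafil and 6.21 with romidepsin alone (-0.02). TOLLIP was at 0.16, OPTN at -0.15, TAX1BP1 at -0.14 and TEX264, a receptor for the endoplasmic reticulum, at 0.14. The 10 kept receptors had a median of 0.02, 5 higher and 5 lower. Among the 10 kept fusion genes the median was -0.04, 4 higher and 6 lower. VPS33A, a subunit of the HOPS tethering complex, had 6.52 with sildenafil and 6.84 without (-0.32), and 3.6% of genes of like signal were as far apart. It was named as the largest difference of the list, so that share does not show that it is unusual. Another HOPS subunit, VPS41, was at -0.19, the tether TECPR1 at 0.19 and the SNARE gene VAMP8 at 0.18. Of genes of like signal, 17.8% were as far apart as VPS41, 38.8% as TECPR1 and 44.6% as VAMP8.

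Over all 13 lists, 180 autophagy or lysosome genes were listed, of which 107 had a named probe set and 98 were kept. Of the 98, 46 were higher and 52 lower, with a median difference of -0.01, the same as over all kept genes to that precision. None reached 1.5-fold. At the smaller threshold of 0.32 there were 5 genes (5.1%, against 12.7% of all kept genes). They were ATG16L1, TFEB, GABARAPL1, ATG9A and TLR2. Leaving out the 3 members, which were chosen for their size, 2 of 95 remained (2.11%). Removing genes picked for their size lowers the share, so the 2.11% cannot be set against the 12.7%. The 98 listed genes were brighter, with a median mean signal of 6.26 against 5.77 over all kept genes, and differences are narrower at higher signal. The part of signal in the share of 5.1% was not tested.

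Genes on either side of the members were read to see whether a difference was shared along the chromosome. RefSeq (GRCh38.p14) places the Cajal body RNA genes SCARNA5 and SCARNA6, guides for the modification of spliceosomal RNAs, inside ATG16L1. SCARNA5 had 8.19 with romidepsin plus sildenafil and 8.39 with romidepsin alone (-0.20), and SCARNA6 had 7.38 with sildenafil and 7.17 without (0.21). The 2 RNAs thus differed in opposite directions, and neither by as much as the gene that contains them. Of the 3 nearest named genes on each side, USP40, a deubiquitinase gene, was as low as ATG16L1, at 4.01 with sildenafil against 4.49 without (-0.48). At that lower signal 8.2% of genes were as far apart. The other 5, among them the histone chaperone gene HJURP (0.08) and GIGYF2 (0.03), lay between 0.03 and 0.25.

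GABARAPL1 lies among lectin-like receptor genes of natural killer cells, and its 4 kept neighbours were lower with sildenafil, most of them slightly. MAGOHB, a component of the exon junction complex, was at -0.29 (5.43 with sildenafil and 5.72 without). CD69, an activation marker of lymphocytes, was at -0.08, KLRA1P at -0.07 and STYK1 at -0.06. For these last 3, between 57.4% and 75.2% of genes of like signal were at least as far apart. All 4 stayed lower under each scaling tried. Of all kept genes, 52.4% were lower with sildenafil. TMEM52B and OLR1 were below the filter level on both arrays. GABARAPL1-AS1, which overlaps the gene, had no named probe set, as was the case for MIR10398 inside TFEB. The kept neighbours of TFEB lay on both sides of 0. MDFI was at -0.22, MIR4641 at 0.21, FRS3 at 0.06 and FOXP4 at 0.01. PRICKLE4 (0.37) and PGC (-0.08) were below the filter level on both arrays.

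**Figure D4:**
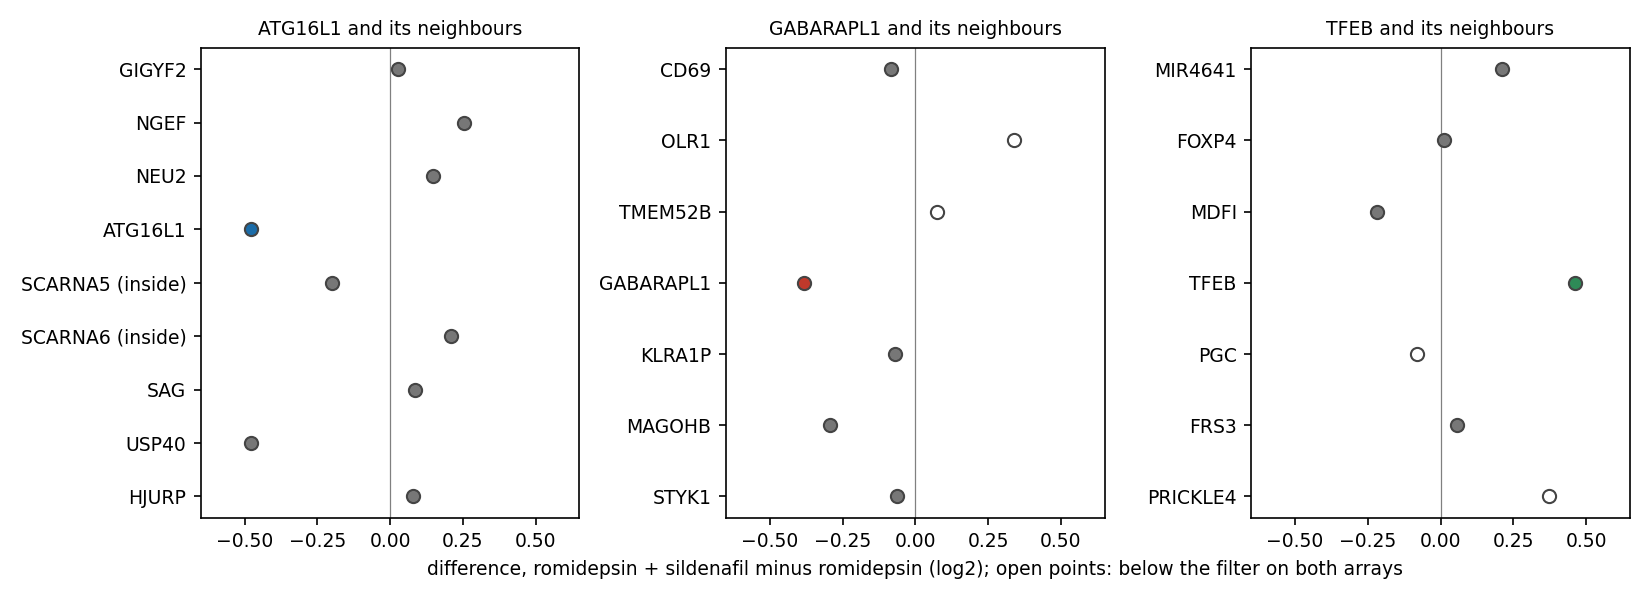
Difference in log2 signal, romidepsin plus sildenafil minus romidepsin, of ATG16L1, GABARAPL1 and TFEB (coloured) and of genes with a named probe set that lie inside them or are the 3 nearest on each side, in chromosome order from top to bottom. Open points are genes below the filter level on both arrays. USP40 at -0.48 is the neighbour that lies as low as ATG16L1, and the genes inside ATG16L1 lie at -0.20 and 0.21.

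The genes closest to each member in signal on both arrays were named by the Euclidean distance between their pairs of log2 values, over 2 arrays. For ATG16L1 these were SEPTIN7P14 (distance 0.015), MIR4453HG (0.019) and METTL25B (0.048). For GABARAPL1 they were BLOC1S4 (0.021), UBXN8 (0.037) and FAAP24 (0.042), and for TFEB LINC00229 (0.0072), CYBRD1 (0.0096) and HAND1 (0.022). With 2 arrays such a match says only that both signals were alike.

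The promoter windows printed above were searched on both strands for 6 motifs. They were the E-box CACGTG, the core TCACGTGA of the CLEAR element, which contains the E-box, the cAMP response element TGACGTCA, a forkhead element GTAAACA, an ETS core CCGGAAG and the GC box GGGCGG. Neither the E-box nor the CLEAR core occurred in the windows of the 3 genes, including the other 2 of TFEB. Over 35116 promoter windows of 250 bases, 6.34% held the E-box and 0.854% the CLEAR core. GABARAPL1 held the cAMP response element, starting 30 bases before the RefSeq start, a motif found in 1.65% of windows. It also held 2 GC boxes that share a base, 52 and 47 bases before the start. ATG16L1 held the ETS core at 124 and 40 bases before the start, both on the opposite strand, and 8.52% of windows held that motif. The GC box occurred in all 5 windows of the 3 genes and in 42.6% of all windows. The forkhead element, present in 2.98% of windows, occurred in none of the 5. The 6 motifs were chosen after the sequences had been read, so the shares of windows cannot show that a match is unusual. A match describes the letters of a window and does not show that a factor binds there.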

How the data were processed

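Total RNA of SNK6 cultures was amplified with a whole-transcript kit, biotin-labelled and hybridised, 1 array per treatment, per the labels' protocols. The authors deposited log2 signals for 53617 probe sets. The log base is unwritten and was read from the maximum of 13.05, which is more than a 16-bit scanner could give in natural logs (11.1). The sources used here do not give the summarisation, background correction or normalization. The sorted columns differed nowhere by more than 0.15. If the arrays were scaled to each other before deposit, a change shared by most transcripts would not be seen, and this cannot be told from the values. The number of arrays limits the precision.

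The groups were read from the sample titles, whose second drug was taken to be sildenafil, the only other drug in the treatment protocol. Platform annotation named 16098 probe sets (14884 genes), each with 1 symbol. The other 37519 are unnamed here. All 14884 symbols matched the current RefSeq table. For 779 genes with several probe sets the brightest stood for the gene. Genes reaching the table's median value (3.91) on either array were kept, 10081 in all. Differences are combination minus romidepsin, with no test.

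The members and gene lists were chosen with earlier results of these data known, and the promoter motifs after the sequences had been read. Named genes were the members, fixed pathway genes, up to 4 genes per list with the largest difference, neighbours with a named probe set and the 3 nearest genes in signal. Scaling, filter, probe set handling, threshold, list summary and the set of like-signal genes were varied. The procedure was tested on simulated data with planted differences larger than those of the members, so that test says nothing about differences of the members' size. Figures used matplotlib 3.10.9, lowess used statsmodels 0.14.6, and tables used pandas 2.3.3 and numpy 2.4.6 under Python 3.11.15.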

Additional observations from a re-analysis of the deposited data

How the results depend on the processing

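The differences of ATG16L1, GABARAPL1 and TFEB kept their direction and moved by less than 0.1 on the log2 scale under median centring, quantile normalization and lowess centring. With 1 array per treatment these settings say nothing about variation between cultures. No paired analysis was possible because each treatment has 1 array. The share of like-signal genes at least as far apart ranged from 1.2% to 4.6% for ATG16L1, from 6.6% to 13% for GABARAPL1 and from 8.6% to 12.2% for TFEB. The extremes for GABARAPL1 came from matching on the romidepsin array (6.6%) and from quantile normalization (13%), and that of 1.2% for ATG16L1 from protein-coding genes alone, an alternative chosen after seeing the data. The causes were not tested. TFEB drops out at a filter of log2 signal 5, so that setting gives it no value. Of all named genes, 223 were higher and 156 lower at 1.5-fold with no filter, which tests more dim genes, and 28 and 45 with a filter at log2 signal 5, which tests fewer. At 2-fold 9 were higher and 9 lower, and at a log2 difference of 0.32 the counts were 674 and 609. Of the autophagy and lysosome genes, 5 (5.1%) passed 0.32, against 12.7% of all kept genes. The median of the autophagy and lysosome genes lay between -0.04 and 0.03 and changed sign with scaling. The ATG8 family median lay between -0.24 and -0.16.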
